A study of Mus musculus with 6 samples.

Results

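The neutrophil granule and calprotectin genes are 10 mouse genes whose proteins fill the cytosol, granules or surface of neutrophils: S100a8, S100a9, Mpo, Elane, Ngp, Camp, Ltf, Lcn2, Retnlg and Trem1. They were chosen by symbol, as rows of the authors' comparison tables of H7 or UNKC tumours against normal pancreas. This rule found 9 of the 10 among 27179 genes counted, 7 in the H7 table and 9 in the UNKC table. Elane was in neither table, so its read counts were taken by its gene ID and it is described by counts alone.

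RNA of bulk tissue was sequenced in 6 libraries, 2 per group. H7 libraries came from tumours that PANC02-H7 cells formed in the pancreas of C57BL/6 mice, and UNKC libraries from tumours that UN-KC-6141 cells formed there, both collected 20 days after surgical injection. The third group was normal pancreas of C57BL/6 mice, and no tumour-bearing mouse was treated. Both cell lines are established mouse pancreatic cancer lines, so each tumour group stands for 1 implanted line, and a whole tumour holds host cells as well as line cells. The labels give no age or sex and do not say that the replicates are separate mice, so p-values measure the spread between these libraries, which may be technical.

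Neutrophils build their granules in sequence while they mature in the bone marrow. Azurophil granules, with myeloperoxidase and neutrophil elastase, are made first, specific granules, with lactoferrin, lipocalin 2, cathelicidin and the neutrophilic granule protein, follow, and transcription of most granule genes has largely ceased in mature cells that reach blood and tissue. The S100a8 and S100a9 proteins form calprotectin, which fills the cytosol of mature neutrophils and monocytes, and Lcn2 and Ltf are also made by epithelial cells.

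The libraries differed in depth. Total counts were 33332516 and 36307030 reads for H7, 40507546 and 38728423 for UNKC and 12077320 and 8204225 for normal pancreas. Ribosomal RNA took 85.0% to 86.4% of the normal reads and 20.1% to 27.8% of the tumour reads, which left 780777 and 699044 other reads in the normal libraries (Lars2 and 1 unnamed gene set aside too) and at least 23880939 in each tumour library. Levels are CPM, counts scaled to library size, with factors from the trimmed mean of M-values (TMM), and groups as mean ± SD (n = 2 throughout). A read pair was counted as 2 reads for most genes, so the limit that a count of 0 allows, 3 pairs or 6 reads over a group, was 1.41 CPM in normal pancreas but 0.0408 in H7 and 0.0341 in UNKC tumours. Intervals and floors cover counting error only. As a check of the labels, all 7 acinar cell genes were lower in both tumour groups, with a summed level of 9250 to 10411 CPM in normal pancreas against 2.11 to 36.4 CPM in the tumours. The defining neutrophil surface gene Ly6g had 0 and 0 reads in normal pancreas, 0 and 1 in H7 tumours, and 2 and 6 in UNKC libraries, at or near 0 in all 6 libraries. Directions against normal pancreas rest on the TMM scaling: with total counts the median log2 fold change of all tested genes was 3.61 in H7 and 3.77 in UNKC tumours in place of 0.34 and 0.42.

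The 250 bases before the start of 5 of these genes are shown because these genes carry the differences described below. S100a9 and Ngp differed between the tumour types. Camp, like Ngp, was lower in both tumours than in normal pancreas, but did not pass between the tumour types. Lcn2 and Ltf varied strongly between replicates of each tumour type. The sequences are from RefSeq (GRCm38.p6), in which all 10 genes were matched, and are written 5′ to 3′ on the strand of the gene. Capitals mark matches on either strand to TTNNGCAA, a form of the C/EBP motif, and to GAGGAA, a core of the PU.1 motif, factors known for granulocyte genes. No match overlapped another.

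S100a9 (chr3:90695722-90695971, minus strand): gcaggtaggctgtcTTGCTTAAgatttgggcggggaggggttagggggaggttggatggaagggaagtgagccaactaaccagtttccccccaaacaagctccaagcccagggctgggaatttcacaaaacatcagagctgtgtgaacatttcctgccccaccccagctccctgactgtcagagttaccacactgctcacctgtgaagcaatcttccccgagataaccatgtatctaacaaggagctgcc
Ngp (chr9:110419558-110419807, plus strand): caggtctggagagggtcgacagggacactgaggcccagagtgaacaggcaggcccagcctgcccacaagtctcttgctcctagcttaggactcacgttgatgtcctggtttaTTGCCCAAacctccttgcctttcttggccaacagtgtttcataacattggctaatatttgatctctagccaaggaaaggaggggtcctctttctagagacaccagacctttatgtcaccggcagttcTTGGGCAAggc
Camp (chr9:109849457-109849706, minus strand): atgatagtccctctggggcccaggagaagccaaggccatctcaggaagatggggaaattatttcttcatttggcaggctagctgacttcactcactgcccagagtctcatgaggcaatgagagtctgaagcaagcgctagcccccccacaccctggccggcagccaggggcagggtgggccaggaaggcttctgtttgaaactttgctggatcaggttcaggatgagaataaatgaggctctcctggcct
Ltf (chr9:111019042-111019291, plus strand): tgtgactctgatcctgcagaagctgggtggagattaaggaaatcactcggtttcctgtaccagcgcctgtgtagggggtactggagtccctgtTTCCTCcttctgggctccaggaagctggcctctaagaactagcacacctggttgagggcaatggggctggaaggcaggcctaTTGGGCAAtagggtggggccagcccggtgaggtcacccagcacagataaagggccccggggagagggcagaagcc
Lcn2 (chr2:32387740-32387989, minus strand): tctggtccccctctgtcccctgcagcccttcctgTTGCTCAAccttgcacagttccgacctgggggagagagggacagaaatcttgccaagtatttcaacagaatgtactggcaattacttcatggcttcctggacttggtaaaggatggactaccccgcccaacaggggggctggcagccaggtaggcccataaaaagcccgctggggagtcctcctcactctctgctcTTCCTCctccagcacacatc

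Ngp held 2 C/EBP matches, whose first bases lie 138 and 11 bases before the start, and Ltf 1, at 75 bases. Lcn2 held 1 C/EBP match at 216 bases and S100a9 1 at 236. A PU.1 match lay 157 bases before Ltf and 20 before Lcn2, and Camp had neither set of letters in this window. In the windows not shown, Retnlg held 1 C/EBP match and no PU.1 match. S100a8, Mpo, Elane and Trem1 held PU.1 matches and no C/EBP match. Among 32817 RefSeq windows of the same length, 9.57% held the C/EBP letters and 23.3% the PU.1 letters. These matches describe the letters and no binding was measured.

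Across the 10 genes, S100a9 was higher in H7 than in UNKC tumours, while Ngp and Camp were lower in both tumours than in normal pancreas and Trem1 was higher in both. In the edgeR quasi-likelihood fit over all 6 libraries, 9 of the 10 genes passed the filter on low counts. Of these 9, 1 was higher and 2 were lower in H7 than in normal libraries, where 29.6% of the 16306 tested genes were higher and 21.9% lower. In UNKC tumours 1 was higher and 3 were lower, against 29.1% and 19.3% of tested genes. Between the tumours 1 was higher in H7 and 1 in UNKC, where 7.14% and 11.1% of tested genes were. The filter asked for 0.287 CPM in 2 libraries, or 10 reads at the median library size without TMM factors, and for a minimum total. Ngp, Camp and Mpo met it without any H7 library, and Trem1 and Retnlg without any normal library. Their passing thus already reflects the groups in which they were present. The median log2 fold change of the 9 genes was 0.33, -1.56 and -0.18 in H7 against normal, UNKC against normal and H7 against UNKC, beside 0.34, 0.42 and -0.02 over all tested genes.

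**Figure D1:**
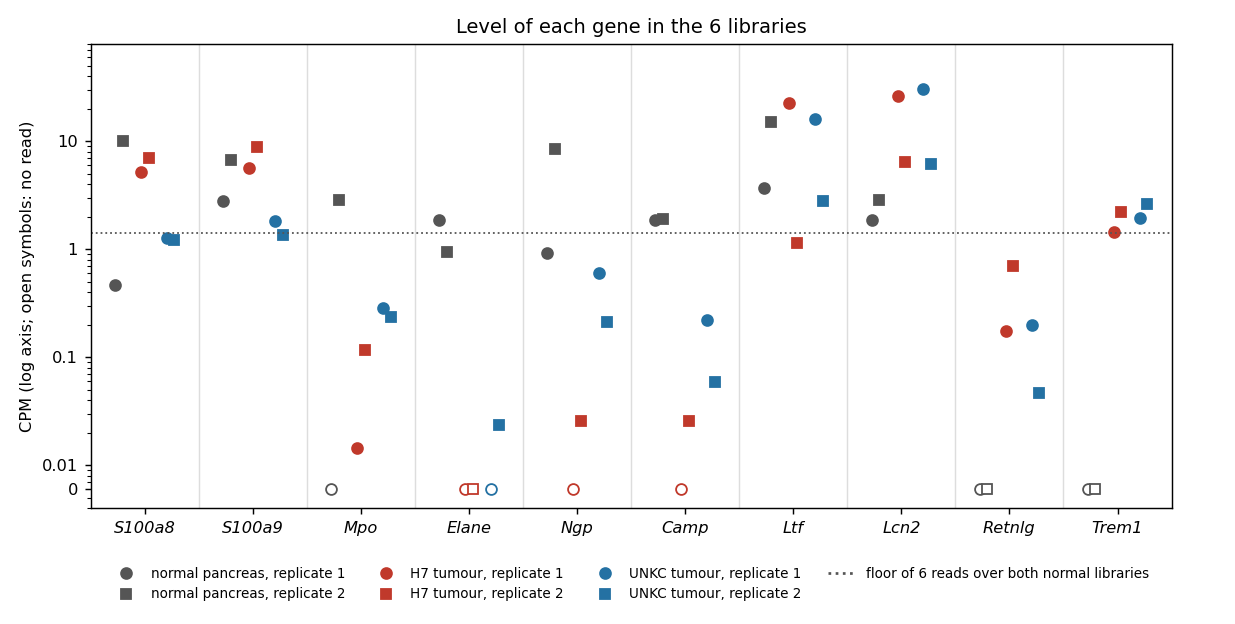
Level of each of the 10 genes in each library, in CPM on a log axis; open symbols at 0 mark libraries with no read, and the dotted line is the floor of 1.41 CPM over both normal libraries. S100a8 and S100a9 separate the H7 from the UNKC libraries, as 70.4% of tested genes do. Ngp and Camp sit lowest in H7 libraries, and Trem1 has no read in either normal library.

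S100a9 (gene ID 20202, chr3:90692630-90695721, GRCm38) encodes the larger subunit of calprotectin. Its level was 5.69 and 8.88 CPM in H7 tumours, 1.83 and 1.36 CPM in UNKC tumours and 2.78 and 6.68 CPM in normal pancreas. Both H7 libraries were above both UNKC libraries, while the normal libraries overlapped with H7 and were both above UNKC. The H7 and UNKC libraries did not overlap for 70.4% of tested genes. S100a9 was 4.57-fold higher in H7 (7.29 ± 2.26 CPM) than in UNKC tumours (1.59 ± 0.332 CPM), a log2 fold change of 2.19 ± 0.39 (SE; edgeR adjusted p = 0.0148). It was lower in UNKC tumours than in normal pancreas (4.73 ± 2.76 CPM) with a log2 fold change of -1.56 ± 0.52 (edgeR adjusted p = 0.0491). Against normal pancreas, H7 tumours were at 0.63 ± 0.49 (edgeR adjusted p = 0.324). In bulk tissue, fewer cells of a type and less RNA per cell cannot be told apart.

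The higher S100a9 level of H7 tumours missed the threshold without H7 replicate 1 (2.50, adjusted p = 0.0754), H7 replicate 2 (1.84, 0.106), UNKC replicate 1 (2.43, 0.0671) or UNKC replicate 2 (1.99, 0.0625). The lower level of UNKC tumours against normal pancreas was close to the threshold: without H7 replicate 1 or 2, Normal replicate 2, or UNKC replicate 1 or 2 the adjusted p was 0.0777, 0.0787, 0.339, 0.0877 and 0.144, the log2 fold change was -0.77 without Normal replicate 2, and scaling to total counts turned it to 1.76. That total-count value passed the threshold in the opposite direction (edgeR adjusted p = 0.0281). The authors' deposited table gives S100a9 a log2 fold change of -1.42 in UNKC tumours against normal pancreas (adjusted p = 0.0215).

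S100a8 (gene ID 20201, chr3:90669071-90670034), the partner subunit, lies 22.6 kb from S100a9. Its level was 5.21 and 7.07 CPM in H7 tumours, 1.28 and 1.22 CPM in UNKC tumours and 0.463 and 10.02 CPM in normal pancreas. The H7 libraries were again both above the UNKC libraries, and the normal libraries spanned all 4 tumour libraries, with 1 and 21 reads. The log2 fold change between H7 and UNKC tumours was 2.29 ± 0.66, similar in size to that of S100a9 but short of the threshold (edgeR adjusted p = 0.0635). Against normal pancreas it was 0.24 ± 0.80 in H7 (edgeR adjusted p = 0.819) and -2.05 ± 0.86 in UNKC tumours (0.0975). Both values had opposite signs depending on which normal library was left out. Without Normal replicate 2, S100a8 was at 3.76 in H7 tumours (adjusted p = 0.00661) and 1.46 in UNKC tumours (0.162), and without Normal replicate 1 at -0.68 (0.126) and -2.98 (0.00217). Between H7 and UNKC tumours the adjusted p was 0.00525 without Normal replicate 1 and 0.00571 without Normal replicate 2, but 0.249 and 0.265 without H7 replicate 1 or 2 and 0.232 and 0.154 without UNKC replicate 1 or 2.

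Within a library the ratio of both subunits does not depend on how libraries are scaled. S100a8 made up 47.6% and 44.2% of the calprotectin read pairs, counted as the authors' fragments, in H7 tumours and 41.5% and 47.3% in UNKC tumours. In normal pancreas it was 0 of 3 pairs and 58.8% of 17 pairs. The Clopper-Pearson 95% intervals of the 4 tumour libraries overlapped, from 42.5% to 52.8% in H7 replicate 1 to 33.3% to 50.1% in UNKC replicate 1, so a difference in subunit ratio between the tumours was not detectable at this depth. Per kilobase of gene length, S100a8 (15.7 ± 3.35 CPM per kb) and S100a9 (14.9 ± 4.62) differed by less than their spread in H7 tumours, and likewise in UNKC tumours (3.19 ± 0.121 and 3.26 ± 0.680).

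Genes of other cell types also differed between the tumours. The summed level of the 12 macrophage and monocyte markers, cells that can also make calprotectin, was 639 to 672 CPM in H7, 326 to 338 CPM in UNKC and 91.6 to 137 CPM in normal pancreas. Of these 12 markers 4 were higher and 2 lower in H7 than in UNKC tumours, among them Cx3cr1, a chemokine receptor of monocytes and macrophages, by 2.29 ± 0.20, and C1qc, a complement subunit, by 1.35 ± 0.28 (log2; edgeR adjusted p = 0.00178 and 0.024). Marco and Cd163 were the 2 lower, at -5.34 ± 0.69 and -1.62 ± 0.32 (edgeR adjusted p = 0.00536 and 0.0205). The monocyte genes Ccr2 and Ly6c2 were at -0.09 ± 0.24 and 0.38 ± 0.63 (edgeR adjusted p = 0.841 and 0.749). The part of these cells in the calprotectin difference was not tested. Squamous keratinocyte markers, another source of S100a8 and S100a9, summed to 22.6 to 24.6 CPM in H7, 7.78 to 11.02 in UNKC and 4.77 to 10.6 in normal pancreas. The order rested on Trp63: the other 7 markers, a split chosen after seeing the data, summed to 5.57 and 5.61 CPM in H7, 11.02 and 7.46 in UNKC and 6.02 and 3.82 in normal libraries, highest in UNKC tumours. In the list of 8, with Krt6a at 0 reads in both H7 libraries, 1 of 5 tested was higher in H7 than in UNKC tumours (Trp63) and 1 lower (Sprr1a). Their part was not tested either.

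The other S100 genes were mostly higher in both tumours. Of 10 tested, 8 were higher in H7 and 7 in UNKC tumours than in normal pancreas. S100a4, a calcium-binding protein of motile and mesenchymal cells, was higher by 4.64 ± 0.19 in H7 and 5.10 ± 0.19 in UNKC tumours (edgeR adjusted p = 0.000108 and 0.000105). Between the tumours 1 was higher in H7 (S100b, 2.72 ± 0.42, edgeR adjusted p = 0.00496) and 3 were lower (S100a6, S100a10 and S100a16), so S100a10 at -1.09 ± 0.15 had the opposite sign to S100a9 (edgeR adjusted p = 0.00629).

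Of the azurophil granule genes, Mpo (gene ID 17523, chr11:87793784-87804412), the enzyme that makes hypochlorous acid, had 1 and 9 reads in H7 tumours, 26 and 20 in UNKC tumours and 0 and 6 in normal pancreas. These were 0.0145 and 0.115 CPM, 0.288 and 0.234 CPM, and 0 and 2.86 CPM. Both UNKC libraries were above both H7 libraries, and the normal libraries lay below and above all 4. Mpo passed in no comparison: the log2 fold change was -4.35 ± 1.61 in H7 (edgeR adjusted p = 0.0637) and -2.42 ± 1.38 in UNKC tumours (0.197) against normal pancreas, and -1.92 ± 0.97 between them (0.237). These rest on 3 pairs in normal pancreas, with a pooled ratio of 20.7-fold lower in H7 tumours (exact binomial 95% interval 3.22 to 106). H7 tumours passed without Normal replicate 1 (-5.35, edgeR adjusted p = 0.0310), and without Normal replicate 2 no normal read was left.

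Elane (gene ID 50701, chr10:79886312-79888216), neutrophil elastase, had 0 and 0 reads in H7 tumours, 0 and 2 in UNKC tumours and 4 and 2 in normal pancreas. It failed the filter and all groups were at or under their floor, so no fold is given. Of 7 further azurophil granule and precursor genes 3 passed the filter. Ctsc, the protease that activates granule serine proteases in many leukocytes, was higher by 3.73 ± 0.20 in H7 and 3.23 ± 0.20 in UNKC tumours (edgeR adjusted p = 0.000148 and 0.000179). Serpinb1a, an inhibitor of neutrophil elastase, was lower in H7 than in normal libraries (-2.52 ± 0.30) and than in UNKC tumours (-2.38 ± 0.28; edgeR adjusted p = 0.00106 and 0.00378).

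Ngp and Camp, of the specific granules, were lower in both tumour types than in normal pancreas. Ngp (gene ID 18054, chr9:110419808-110423012) encodes neutrophilic granule protein, a cystatin-like protein of immature neutrophils. It had 0 and 2 reads in H7 tumours, 54 and 18 in UNKC tumours and 2 and 18 in normal pancreas, or 0 and 0.0257 CPM, 0.598 and 0.211 CPM, and 0.925 and 8.59 CPM. The libraries fell in 3 separate ranges, with H7 lowest and normal pancreas highest. Such separation was common, since the groups did not overlap for 76.9% of tested genes in H7 against normal, 76.6% in UNKC against normal and 70.4% in H7 against UNKC.

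Ngp was lower in H7 than in normal libraries with a log2 fold change of -8.22 ± 1.45 (edgeR adjusted p = 0.00267). With 1 read pair in H7 tumours, the pooled ratio was 345-fold lower (exact binomial 95% interval 49.1 to 14984). In UNKC tumours it was lower at -3.53 ± 1.02, a pooled 11.2-fold (4.95 to 22.9, edgeR adjusted p = 0.0228). The UNKC value missed the threshold with limma voom (adjusted p = 0.0625). It also missed it by edgeR in the 4 libraries alone (adjusted p = 0.0525) and with the authors' fragment counts (0.0535). Ngp was also lower in H7 than in UNKC tumours, at -4.69 ± 1.33 and a pooled 31.0-fold (5.22 to 1255, edgeR adjusted p = 0.0479). Without Normal replicate 2, which held 18 of the 20 normal reads, the value was -5.87 in H7 (adjusted p = 0.117) and -1.15 in UNKC tumours (0.647). The UNKC value also missed the threshold without H7 replicate 1 (0.069), H7 replicate 2 (0.0651) or UNKC replicate 2 (0.0544), and with total-count scaling (-0.26), and the difference between tumours without H7 replicate 1 (-3.84, 0.335), H7 replicate 2 (-7.35, 0.216) or UNKC replicate 1 (-3.72, 0.207), with total-count scaling (0.0719) or with no filter (0.0592).

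Camp (gene ID 12796, chr9:109847377-109849456) encodes the cathelicidin antimicrobial peptide. It had 0 and 2 reads in H7 tumours, 20 and 5 in UNKC tumours and 4 and 4 in normal pancreas, or 0 and 0.0257 CPM, 0.221 and 0.0585 CPM, and 1.85 and 1.91 CPM. The order of the groups was that of Ngp, and the normal libraries were close to each other. Camp was lower in H7 tumours at -6.89 ± 1.49 (edgeR adjusted p = 0.00626), a pooled 138-fold on 1 against 4 pairs (exact binomial 95% interval 13.7 to 6801). In UNKC tumours it was lower at -3.71 ± 1.14 (edgeR adjusted p = 0.0289), a pooled 13.8-fold (3.23 to 45.4). Between the tumours the log2 fold change was -3.18 ± 1.19 (edgeR adjusted p = 0.109). The H7 call held without each library in turn, but was not tested with read counts halved or in the 4 libraries alone. The UNKC call was lost without H7 replicate 1 (0.0537), H7 replicate 2 (0.0534), Normal replicate 1 (0.123), Normal replicate 2 (0.125) or UNKC replicate 2 (0.0596), and with total-count scaling (-0.34). In the authors' deposited table the adjusted p is 4.85e-05 (H7) and 0.0121 (UNKC) for Ngp and 0.00729 (UNKC) for Camp.

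**Figure D2:**
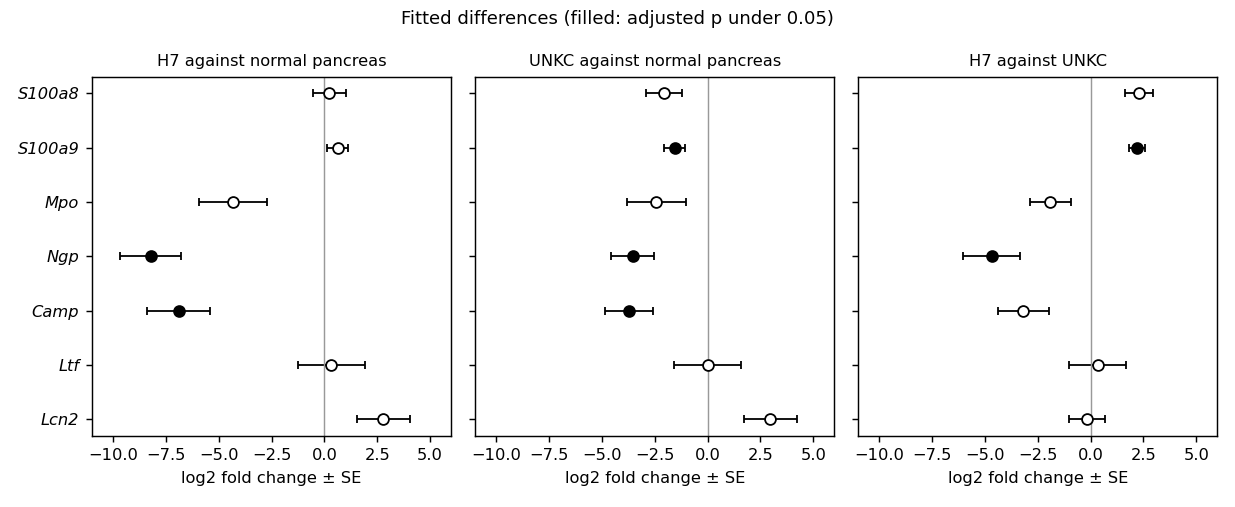
Fitted log2 fold change ± SE of the 7 genes with reads in every group, in 3 comparisons; filled points have an edgeR adjusted p under 0.05. Ngp and Camp lie left of 0 in all 3 panels, and S100a9 is filled left of 0 in UNKC against normal pancreas and right of 0 in H7 against UNKC.

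Measured against calprotectin in the same library, Ngp and Camp together were 3 of the 6 pairs of these 4 genes in Normal replicate 1 and 39.3% of the 28 pairs in Normal replicate 2. In UNKC tumours they were 21.1% of 180 pairs and 9.09% of 121 pairs. In H7 tumours they were 0 of 378 pairs, with an exact 95% interval up to 0.971%, and 0.319% of 626 pairs. The shares of H7 libraries were thus below the Clopper-Pearson 95% intervals of both UNKC libraries (15.4% to 27.8% and 4.63% to 15.7%), which cover counting error only. In the same counts Ngp was lower and S100a9 higher in H7 than in UNKC tumours. The lower H7 share follows from these and is no separate result. The difference of these shares between the groups was not tested.

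**Figure D3:**
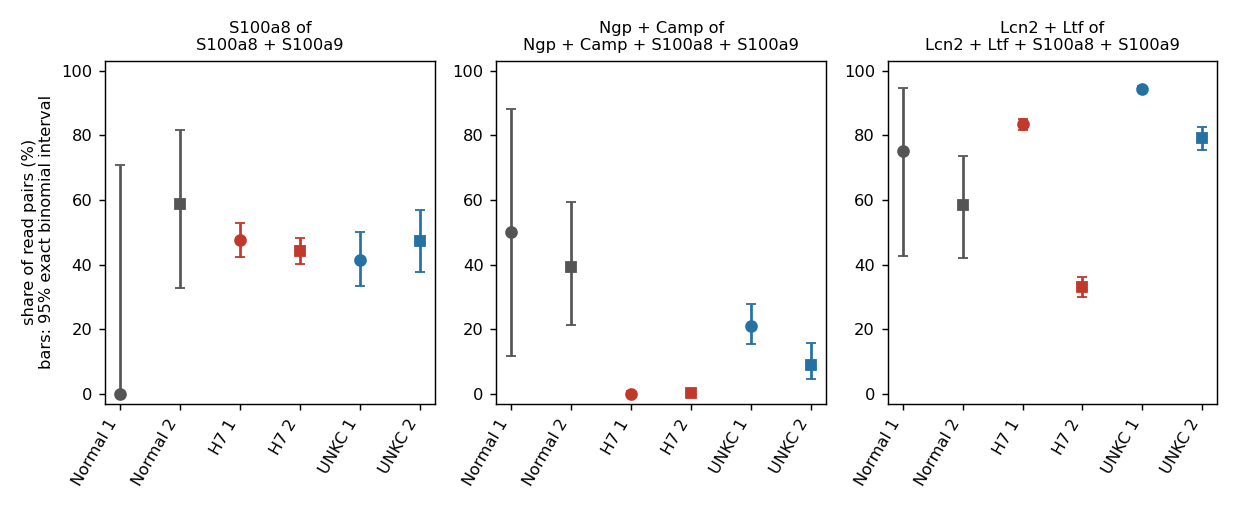
Share of read pairs (%) within each library for S100a8 among calprotectin pairs, Ngp and Camp among these and calprotectin, and Lcn2 and Ltf among these and calprotectin, with exact binomial 95% intervals. The subunit share is near 41.5% to 47.6% in every tumour library, the Ngp and Camp share is at or near 0 in both H7 libraries, and the Lcn2 and Ltf share is higher in replicate 1 of each tumour type.

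Markers of red blood cells and of B and plasma cells differed alongside Ngp and Camp, while T and NK cell markers were not lower. The red blood cell markers summed to 10.6 and 21.0 CPM in normal pancreas, 0.706 and 1.68 CPM in H7 tumours and 7.25 and 2.41 CPM in UNKC tumours. Of 5 listed 4 were matched and 3 tested. All 3 were lower in H7 than in normal libraries, and 0 of 3 passed as lower in UNKC tumours. Alas2, the heme synthesis enzyme of erythroid cells, was lower in H7 tumours at -3.17 ± 0.92 and stood at -1.64 ± 0.87 in UNKC tumours (edgeR adjusted p = 0.0303 and 0.173). B and plasma cell markers summed to 67.1 and 100.2 CPM in normal pancreas, 1.27 and 1.45 CPM in H7 tumours and 8.42 and 4.09 CPM in UNKC tumours, with 7 of 7 tested lower in H7 and 6 of 7 in UNKC tumours. For these 2 lists the order of the groups was that of Ngp and Camp. The part of these cells in the lower Ngp and Camp levels was not tested. T and NK cell markers summed to 4.63 and 3.82 CPM in normal pancreas, 6.79 and 9.84 CPM in H7 and 18.2 and 20.4 CPM in UNKC tumours. Of 6 tested, 1 was higher in H7 and 2 in UNKC tumours than in normal pancreas, and 0 were lower.

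Lcn2 and Ltf passed in no comparison of the main fit and varied strongly between replicates of a tumour type. Lcn2 (gene ID 16819, chr2:32384637-32387739) encodes lipocalin 2, which binds bacterial siderophores and so withholds iron. Its level was 26.2 and 6.44 CPM in H7 tumours, 30.9 and 6.20 CPM in UNKC tumours and 1.85 and 2.86 CPM in normal pancreas. All 4 tumour libraries were above both normal libraries, and replicate 1 of each tumour type was 4.07-fold (H7) and 4.98-fold (UNKC) above replicate 2. The log2 fold change against normal pancreas was 2.79 ± 1.26 in H7 tumours, or 6.94-fold (edgeR adjusted p = 0.114). In UNKC tumours it was 2.98 ± 1.26, or 7.88-fold (0.0997). Between the tumours it was -0.18 ± 0.86 (edgeR adjusted p = 0.916). Without UNKC replicate 2 the UNKC value was 3.74 and passed (0.032), without UNKC replicate 1 it was 1.42, and without H7 replicate 1 the H7 value was 1.52. By DESeq2 both passed, at 2.64 in H7 (adjusted p = 0.0301) and 2.80 in UNKC tumours (0.0216). Both also passed with a replicate block, described under the processing. The authors' deposited table gives Lcn2 a log2 fold change of 1.67 in each, with adjusted p = 0.0437 in H7 and 0.0537 in UNKC tumours.

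Ltf (gene ID 17002, chr9:111019292-111042766) encodes the iron-binding lactoferrin. Its level was 22.7 and 1.15 CPM in H7 tumours, 16.1 and 2.79 CPM in UNKC tumours and 3.70 and 15.3 CPM in normal pancreas. The groups overlapped in every comparison. Replicate 1 was 19.6-fold above replicate 2 in H7 and 5.78-fold in UNKC tumours, both more than any difference between group means (11.9 ± 15.2, 9.44 ± 9.41 and 9.48 ± 8.18 CPM in H7, UNKC and normal pancreas). The log2 fold changes were 0.33 ± 1.57 and 0.00 ± 1.57 against normal pancreas and 0.33 ± 1.34 between the tumours (edgeR adjusted p = 0.872, 1 and 0.901). Their sign changed with the library left out, from -2.96 without H7 replicate 1 to 1.72 in H7 against normal pancreas. Of the pairs of both genes, the share of Ltf was 52.2% and 18.8% for H7 replicates 1 and 2, 40.5% and 36.9% for those of UNKC, against 66.7% of 9 and 87.5% of 24 pairs in normal pancreas. Ltf had 1.33 to 1.58 deposited reads per fragment in the 6 libraries, against a median of 2.00 over genes, so its CPM beside other genes is low for its fragments.

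In replicate 1 of each tumour type, Lcn2 and Ltf together took 83.4% (H7) and 94.3% (UNKC) of the pairs they shared with S100a8 and S100a9. In replicate 2 they took 33.1% and 79.2%. S100a8 and S100a9 did not follow this split, with the higher H7 value in replicate 2. Skeletal muscle markers were lower in replicate 1 of both tumours, where they summed to 10.3 (H7) and 1.44 CPM (UNKC), than in replicate 2, where they summed to 485 and 1779 CPM. Ductal and epithelial markers summed to 437 and 410 CPM in H7 and 1194 and 985 CPM in UNKC tumours, mostly Krt8 and Krt18. In H7 replicates 1 and 2 Krt8 was at 171 and 174 CPM and Krt18 at 127 and 136 CPM. Both were higher in UNKC replicate 1 than in UNKC replicate 2. Single markers named after their values were seen were higher in replicate 1: Muc1, a mucin of ductal cells, was at 8.15 and 4.18 CPM in H7 and 10.3 and 3.84 CPM in UNKC tumours. Epcam, an epithelial adhesion protein, was at 12.6 and 9.29 CPM in H7 and 48.5 and 19.0 CPM in UNKC tumours. Olfm4, a specific granule gene that epithelial cells also make, was named after its values were seen: it had 636 and 25 reads in H7 and 104 and 47 in UNKC tumours. The part of muscle or epithelial RNA in the Lcn2 and Ltf values was not tested.

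The further genes of specific and gelatinase granules gave no common direction. Of 15 tested, 2 were higher and 2 lower in H7 tumours, 2 higher and 1 lower in UNKC tumours, and 3 lower in H7 than in UNKC tumours. Lyz2, the lysozyme of myeloid cells, was higher by 2.47 ± 0.34 in H7 and 1.39 ± 0.33 in UNKC tumours (edgeR adjusted p = 0.00183 and 0.015). Mmp9, the gelatinase, was higher in UNKC tumours by 1.38 ± 0.46 (edgeR adjusted p = 0.0486). Hp, haptoglobin, was lower in H7 than in normal libraries at -3.02 ± 0.66 and than in UNKC tumours at -2.36 ± 0.55 (edgeR adjusted p = 0.0104 and 0.0339). Slpi, an inhibitor of neutrophil elastase, was higher in H7 tumours (edgeR adjusted p = 0.0139), at a pooled 13.5-fold on 2 normal pairs (exact binomial 95% interval 3.73 to 111.9). Cd177, a neutrophil surface protein, was lower in both tumours, and Chil3 and Ptx3 were the other 2 genes lower in H7 than in UNKC tumours (named for completeness of these counts after their values were seen).

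Among genes that handle lipocalin 2 and acute phase genes, 5 of 9 tested were lower in H7 tumours, while 1 was higher and 3 were lower in UNKC tumours. The receptors proposed for lipocalin 2, Slc22a17 and the endocytic receptor Lrp2, were lower in H7 tumours at -6.06 ± 0.64 and -7.49 ± 0.96 (edgeR adjusted p = 0.000746 and 0.00139). They were lower in UNKC tumours at -3.42 ± 0.56 and -3.57 ± 0.75 (edgeR adjusted p = 0.00371 and 0.00953). Saa3, an acute phase protein, was higher in UNKC tumours than in normal pancreas by 1.85 ± 0.47 and lower in H7 than in UNKC tumours at -5.59 ± 0.46 (edgeR adjusted p = 0.019 and 0.00153).

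Retnlg (gene ID 245195, chr16:48872608-48874498), a resistin-like secreted protein of mature neutrophils, had 12 and 55 reads in H7 tumours, 18 and 4 in UNKC tumours and none in normal pancreas. Its level was 0.174 and 0.706 CPM in H7 and 0.199 and 0.0468 CPM in UNKC tumours. All 4 values were under the normal floor of 1.41 CPM, so a difference from normal pancreas was not detectable at this depth (edgeR adjusted p = 0.460 and 0.688). The tumours overlapped, at 1.82 ± 0.95 between H7 and UNKC (edgeR adjusted p = 0.271).

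Trem1 (gene ID 58217, chr17:48232713-48246927) encodes a receptor of neutrophils and monocytes that amplifies inflammatory signals through the adaptor Tyrobp. It had 101 and 172 reads in H7 tumours, 178 and 227 in UNKC tumours and none in normal pancreas. Its level was 1.46 and 2.21 CPM in H7 and 1.97 and 2.66 CPM in UNKC tumours, all 4 above the floor of normal pancreas. Against that floor Trem1 was at least 1.32-fold higher in H7 (edgeR adjusted p = 0.0317) and at least 1.64-fold higher in UNKC tumours (0.0245). The tumours overlapped (-0.33 ± 0.37, edgeR adjusted p = 0.618). The H7 call was lost without H7 replicate 2 (0.0741), UNKC replicate 1 (0.0536) or UNKC replicate 2 (0.0672) and in the 4 libraries alone (0.0556), the UNKC call without UNKC replicate 2 (0.0744). With the authors' fragment counts the H7 call was lost too (edgeR adjusted p = 0.0699). In the authors' deposited table Trem1 has adjusted p = 0.110 in H7 and 0.0545 in UNKC tumours.

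Of 13 tested receptors and adaptors of calprotectin and TREM1, 7 were higher in H7 tumours, and 6 were higher and 1 lower in UNKC tumours. Cd14, the coreceptor of Tlr4, was higher by 3.78 ± 0.33 in H7 and 5.02 ± 0.32 in UNKC tumours (edgeR adjusted p = 0.000341 and 0.00017) and lower in H7 than in UNKC tumours at -1.24 ± 0.21 (0.0109). Bsg, which can bind S100a9, was higher by 2.63 ± 0.17 in H7 and 3.03 ± 0.17 in UNKC tumours (edgeR adjusted p = 0.000185 and 0.000152), at -0.39 ± 0.15 between them (0.137). Card9, an adaptor of myeloid receptors, was lower in UNKC tumours at -1.73 ± 0.42 (edgeR adjusted p = 0.0166). Trem2, a macrophage receptor that also pairs with Tyrobp, was higher in H7 tumours at a pooled 14.6-fold on 1 normal pair (exact binomial 95% interval 2.61 to 578; edgeR adjusted p = 0.00675) and in UNKC tumours at a pooled 8.89-fold (1.59 to 352; 0.0216). Between the tumours Trem2 was at 0.73 ± 0.40 (edgeR adjusted p = 0.267).

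Per kilobase, the highest of the 10 genes in H7 tumours were Lcn2 (19.1 ± 16.4 CPM per kb), S100a8 and S100a9, which did not differ beyond their spread, followed by Ltf (4.34 ± 5.55). In UNKC tumours Lcn2 was first (21.7 ± 20.5), with Ltf (3.44 ± 3.43), S100a9 and S100a8 (3.19 ± 0.121) next and within their spread. In normal pancreas the order was S100a8 (13.4 ± 17.2), S100a9 (9.69 ± 5.65), Ngp (4.10 ± 4.67), Ltf (3.46 ± 2.98), Camp (3.14 ± 0.0672) and Lcn2 (2.76 ± 0.838), and neighbours in it did not differ beyond their spread. Trem1 (0.610 ± 0.175 in H7, 0.770 ± 0.161 in UNKC tumours) and Retnlg (0.723 ± 0.619 and 0.202 ± 0.177) came below these. Mpo (0.0255 ± 0.0281), Camp (0.0214 ± 0.0303) and Ngp (0.0111 ± 0.0156) were lowest in H7 tumours, within their spread of each other, with Camp and Ngp on the same 0 and 2 reads and under the floor. No length was used for Elane.

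Some genes of mature neutrophils were higher in H7 than in UNKC tumours, as S100a9 was. Of 18 listed, 14 were tested: 5 were higher in H7 tumours than in normal pancreas (Csf3r, Cxcr2, Il1r2, Acod1 and Mxd1), 2 in UNKC tumours (Il1r2 and Acod1) and 4 in H7 than in UNKC tumours (Csf3r, Cxcr2, Trem3 and Hdc). Csf3r, the receptor of the granulocyte growth factor G-CSF, was at 16.2 and 21.1 CPM in H7, 3.72 and 3.34 CPM in UNKC and 4.16 and 5.72 CPM in normal libraries. The H7 libraries stood above the other 4. Csf3r was higher in H7 tumours than in normal pancreas by 1.92 ± 0.28 and than in UNKC tumours by 2.40 ± 0.23 (edgeR adjusted p = 0.00231 and 0.00215). Cxcr2, the chemokine receptor that draws neutrophils out of blood, was higher in H7 (4.65 ± 2.01 CPM) than in UNKC tumours (0.465 ± 0.0622 CPM) by 3.31 ± 0.45 (edgeR adjusted p = 0.0101). Its H7 and UNKC reads were 223, 473, 46 and 36, with none in normal pancreas. The median over the 14 was 0.40 between the tumours, beside -0.02 over all tested genes.

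**Figure D4:**
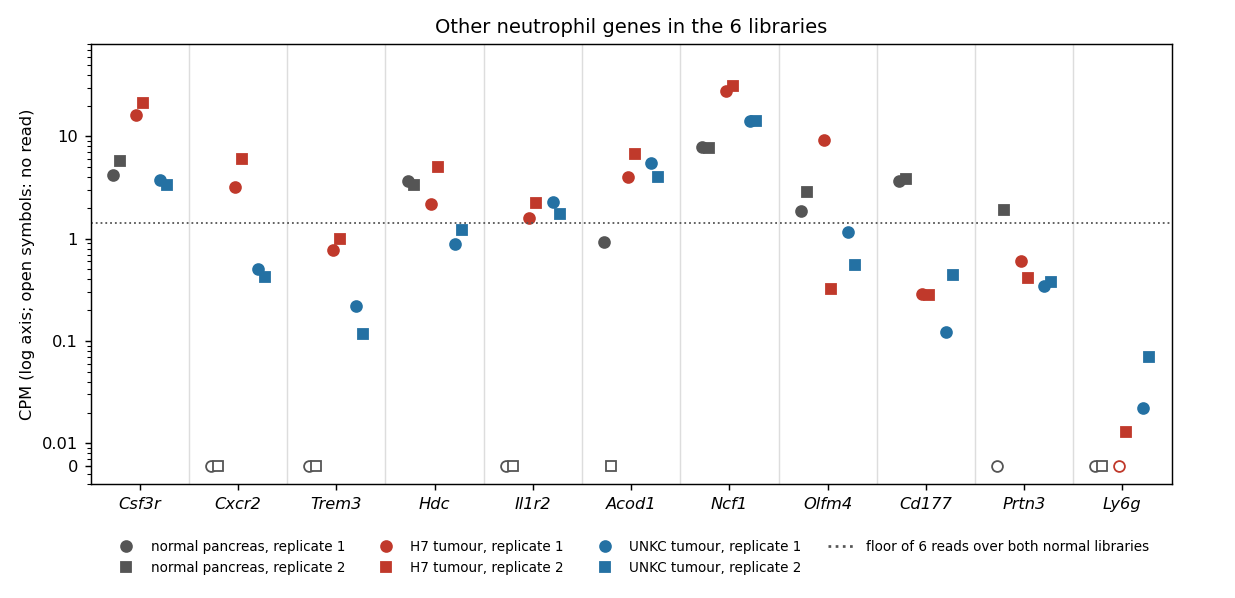
Level in CPM, on a log axis, of 11 other neutrophil genes in each library, chosen after their values were seen; open symbols at 0 mark no read and the dotted line is the floor of 1.41 CPM over both normal libraries. Csf3r, Cxcr2, Trem3, Hdc and Ncf1 are higher in both H7 than in both UNKC libraries, Olfm4 is highest in H7 replicate 1, and Ly6g is at or near 0 in all 6.

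The NADPH oxidase, which makes superoxide in neutrophils and macrophages, had all 5 of its subunits described here (Cybb, Cyba, Ncf1, Ncf4 and Rac2) higher in H7 tumours, 3 of 5 in UNKC tumours and 2 of 5 higher in H7 than in UNKC tumours (Ncf1 and Ncf4). Cybb, its catalytic subunit, was higher by 2.41 ± 0.33 in H7 and 1.66 ± 0.33 in UNKC tumours (edgeR adjusted p = 0.00191 and 0.00784). Ncf1 and Ncf4, its cytosolic subunits, were higher in H7 than in UNKC tumours by 1.05 ± 0.14 and 0.79 ± 0.21 (edgeR adjusted p = 0.0063 and 0.0494).

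Some neutrophil attracting chemokines and growth factors differed between the tumours. Of 12 tested, 4 were higher and 1 lower in H7 tumours, 1 higher and 1 lower in UNKC tumours, and 3 higher and 1 lower in H7 than in UNKC tumours. Cxcl3, a ligand of Cxcr2, was at 11.3 ± 1.63 CPM in H7 and 0.256 ± 0.0181 CPM in UNKC tumours and had no normal read. Against the floor of normal pancreas it was 7.94-fold higher in H7 tumours (edgeR adjusted p = 0.000967), with an exact binomial 95% lower limit of 6.44-fold. Cxcl15 was higher in H7 (95.1 ± 12.3 CPM) than in UNKC tumours (0.390 ± 0.154 CPM) by 7.92 ± 0.55 (edgeR adjusted p = 0.000412). Il1b, the inflammatory cytokine, was higher by a pooled 10.3-fold in H7 tumours (exact binomial 95% interval 3.53 to 50.2; edgeR adjusted p = 0.00169) and 8.18-fold in UNKC tumours (2.79 to 39.7; 0.0028), on 3 normal pairs. Between the tumours it was at 0.34 ± 0.29 (edgeR adjusted p = 0.491). Ppbp, a platelet chemokine, was lower at -5.26 ± 0.55 in H7 and -4.71 ± 0.52 in UNKC tumours (edgeR adjusted p = 0.00071 and 0.00096).

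Of 7 tested granulocyte transcription factors 4 were higher in both H7 and UNKC tumours than in normal pancreas (Cebpb, Cebpd, Spi1 and Runx1), and 1 was lower in H7 and 2 in UNKC tumours. Cebpb, the C/EBP factor of stress granulopoiesis and macrophages, was higher in H7 tumours by 3.32 ± 0.23 and higher than in UNKC tumours by 0.86 ± 0.17 (edgeR adjusted p = 0.000212 and 0.0211). Gfi1, a repressor needed for neutrophil development, was lower at -5.61 ± 0.44 in H7 and -4.71 ± 0.42 in UNKC tumours (edgeR adjusted p = 0.000298 and 0.000439). Cebpe, the C/EBP factor of specific granule genes, had 4 and 5 reads in H7, 4 and 2 in UNKC and none in normal libraries and was not tested (named after its values were seen).

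The genes whose profile was most like that of a member were taken by the smallest root mean square distance of centred log2 CPM over the 6 libraries, among 10995 genes reaching 5 CPM in a group. For S100a9 these were Ifit1 (0.295), Dhx58 (0.347), Ifi27l2a (0.372), Dcn (0.384) and Arhgef19 (0.396). For Camp they were Cttnbp2 (0.259), Dnah2 (0.306), Celsr2 (0.368), Wdr72 (0.374) and Phactr1 (0.432). The level of Ifit1, for example, was 30.0 and 40.4 CPM in H7, 12.6 and 5.77 CPM in UNKC and 14.8 and 23.8 CPM in normal libraries. The level of Cttnbp2 was 0.174 and 0.398, 1.23 and 0.515, and 16.2 and 13.4 CPM in the same order. The libraries share their scaling and depth, so these distances are a description.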

How the data were processed

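The authors deposited raw whole-number read counts per gene for each of the 6 libraries, and 2 comparison tables. Per the submitters' processing notes, tools were STAR, featureCounts and DESeq2 1.18.1 with build mm10; roles, settings and strand are not given in the sources used here, so overlapping antisense reads cannot be told apart. Per the file headers, the authors' tables hold fragment counts, TPM, log2 fold changes and p-values with adjusted p-values. Each mate was counted in the deposited counts of a sample (median ratio to the authors' fragment counts 2.00 in each library and 1.33 to 1.58 for Ltf). Shares and pooled ratios of the 10 genes use the authors' fragment counts where given, and otherwise reads divided by 2. Names came from the authors' tables for 16286 genes and RefSeq for 9355, and 1538 stayed unnamed; Hbb-bt was not matched.

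Counts as deposited were fitted with edgeR 4.0.16 (R 4.3.3; quasi-likelihood, TMM, filterByExpr, all 6 libraries in 1 fit, no covariate), with Benjamini-Hochberg adjustment over 16306 genes and a threshold of 0.05; every adjusted p is from this fit unless a setting, tool or table is named. TMM factors were 0.179 and 0.256 in normal pancreas and 2.07 to 2.23 in tumours. Alternatives used limma 3.58.1 and DESeq2 1.42.0; Python 3.11.15, pandas 2.3.3, SciPy 1.17.1 and matplotlib 3.10.9 made intervals and figures. Against a group with 1 to 3 pairs a pooled ratio with an exact binomial 95% interval is given. Against a group with no read the fold is set against the floor of 6 reads over the group, with the exact binomial 95% lower limit. Across genes, which are not independent replicates, Pearson's r of log2 CPM between the 2 replicates was 0.967 (H7), 0.949 (UNKC) and 0.801 (normal). The fit was tested on simulated data. The members and lists were chosen with earlier results of these data known. Named genes are the members, up to 2 rises and 2 falls per list and comparison past the threshold where the higher group reached 5 CPM, and the 5 nearest profiles of S100a9 and Camp; the text does not name them all, and list genes outside this rule were picked once their values were known. Both comparisons with normal pancreas share the same 2 normal libraries. One gene of the lists is not reported here.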

Additional observations from a re-analysis of the deposited data

Results flagged for a closer look

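S100a9 and Ngp differed between the 2 tumour types by the test of that difference itself. S100a9 was higher in H7 than in UNKC tumours by 2.19 on the log2 scale (edgeR adjusted p = 0.0148, higher in 2 of 2 H7 libraries than in both UNKC libraries). Ngp was at -4.69 (edgeR adjusted p = 0.0479), lower in 2 of 2 H7 libraries, on 1 read pair in H7 and 37 in UNKC tumours. Such separation of H7 from UNKC libraries was common, at 70.4% of tested genes. Ngp passed the filter on low counts through the UNKC and normal libraries alone, and its call was lost with no filter (0.0592), with total counts (0.0719) and without either H7 library or UNKC replicate 1. The S100a9 call was lost without any 1 of the 4 tumour libraries (adjusted p = 0.0625 to 0.106).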

How the results depend on the processing

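S100a9, Ngp, Camp, Lcn2, Mpo and Elane each had 20 or fewer reads in both normal libraries together, and Retnlg and Trem1 had none, which leaves a wide counting error. The counts below are of genes higher or lower among those tested, with the main counts of 1 and 2 (H7 against normal), 1 and 3 (UNKC against normal) and 1 and 1 (H7 against UNKC). Total-count scaling gave 4 higher in H7, 3 higher and 0 lower in UNKC, and 0 lower between the tumours. DESeq2 gave 2 and 2 higher against normal pancreas, and limma voom 1 lower in UNKC and 2 higher between the tumours. The 4 libraries compared alone, with 5 (H7 against normal) or 8 genes tested, gave 0 higher and 0 lower, 1 lower, and 2 higher. The authors' fragment counts, with 5 and 6 genes tested and no H7 against UNKC value, gave 0 higher and 0 lower in H7 and 0 lower in UNKC. Halved counts gave 1 lower in H7. Between the tumours, 0 were lower without a filter and with total counts that left out ribosomal RNA, Lars2 and 1 unnamed gene. Leaving out 1 library gave 0 to 2 higher and 1 to 3 lower in H7, 0 to 3 lower in UNKC, and 0 to 2 higher and 0 to 1 lower between the tumours. Camp in H7 against normal kept its call in 14 of 14 alternatives that tested it, and S100a9 in UNKC against normal in 5 of 17. Halved counts, the 4 libraries alone and the authors' fragment counts did not test Camp in H7 against normal. The cause of these changes was not tested, other than fewer genes or samples where named.

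Replicate numbers were treated as names, since the labels do not say that they pair samples. Deviations of same-numbered libraries correlated at 0.526 between H7 and UNKC but at -0.012 and -0.023 with normal pancreas. The values with normal pancreas cannot show whether same-numbered tumour libraries belong together. The replicate block gave 2 higher in each of the 3 comparisons and 0 lower between the tumours. With it Lcn2 passed (2.68 and 2.78, edgeR adjusted p = 0.0146 and 0.0131), as did S100a8 between the tumours (2.25, 0.0346), while S100a9 in UNKC (-1.52, 0.0754) and Ngp between the tumours (-4.68, 0.0526) did not. It changed no other call of these genes. Ltf was at -0.81, -0.75 and -0.059 with the block.

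Signs changed in values that mostly had not passed. Total counts turned UNKC against normal to 1.20 (S100a8), 1.76 (S100a9) and 0.89 (Mpo), and the upper quartile turned H7 against normal to -0.11 (S100a8) and -0.017 (Ltf). The S100a9 value with total counts passed as higher (edgeR adjusted p = 0.0281), where the main fit had it lower. Ltf in UNKC against normal, at 0.00 as reported and 3.27 with total counts, was at -0.18 (DESeq2 size factors), -0.35 (upper quartile), -0.046 (total without ribosomal RNA), -0.20 (voom), -0.056 (halved), -0.078 (4 libraries), -0.21 (fragment counts) and -0.17 (DESeq2). With voom Ltf was at -0.69 in H7 against normal and -0.49 between the tumours, and Retnlg at -1.17 in UNKC. Leaving out 1 library moved H7 against normal from -0.68 to 3.76 (S100a8), -2.96 to 1.72 (Ltf) and -6.35 to 5.17 (Mpo). It moved UNKC against normal from -2.98 to 1.46 (S100a8), -1.74 to 1.39 (Ltf) and -3.42 to 7.09 (Mpo), and H7 against UNKC from -3.02 to 2.10 (Ltf) and -1.51 to 1.40 (Lcn2).

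Over all tested genes, 4832 were higher and 3568 lower in H7, 4752 and 3150 in UNKC, and 1164 and 1817 between the tumours. Total counts gave 12709 and 524, 13498 and 312, and 649 and 1494, and upper-quartile factors 3751 and 4391, and 3722 and 3977, against normal pancreas. Between the tumours DESeq2 gave 2620 and 2590, voom 2354 and 2729, the 4 libraries 2318 and 2498, and leaving out 1 library 185 to 2180 and 376 to 2458.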
